A study of Rattus norvegicus with 6 samples.

Results

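The genes of the collagen chains were examined in the heart primordium of rat embryos (strain label, Wister rat) on embryonic day 10, with 3 pre-heartbeat and 3 post-heartbeat samples. As the paper defines the groups, the pre-heartbeat primordia had a flat central shape and the post-heartbeat primordia a raised central shape, in embryos that were slightly further in somite number. The labels name no treatment or genetic change, and each sample was hybridized to its own 1-color Agilent array. How many primordia made up 1 array sample is not given in the sources used here, and the dissected tissue holds myocardial, endothelial and adjoining embryonic cells, so fewer cells of a type and less RNA per cell cannot be told apart in these values. The members are the array probes whose gene name reads Col, a number, a and a number. Of 16564 gene symbols on the array, 38 met this rule. One of them, Col4a3bp, encodes a ceramide transfer protein (current name Cert1) and is no collagen, so that 37 collagen genes with 54 probes were left. Of these, 26 genes with 33 probes were well above background, by the flag of the scanner software, on every array of at least 1 group and were tested. A gene with several probes is represented by its brightest probe.

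Collagens are trimers of chains that wind around each other in a long helix, with glycine at regular places, and they are grouped by the structures they build. Fibrillar collagens (types I, II, III, V, XI and XXVII here) form the banded fibrils of connective tissue, type IV forms the network of basement membranes, type VI forms beaded filaments, and the fibril-associated types (IX, XII, XIV, XVI, XIX and XXII here) bind to the surface of fibrils or to basement membranes. Type XVIII is a basement membrane proteoglycan that releases endostatin, types XIII and XXIII span the cell membrane, and type VII makes anchoring fibrils. In the early heart tube, basement membranes underlie the endocardium and the myocardium, and the cardiac jelly between them is an extracellular matrix that later takes part in valve formation.

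The coding part that a probe reads bears on what it measures, so the probes on which the comparisons below turn are given, in lower case and 5′ to 3′, with positions on rn4 as the array annotation gives them. The first is the second probe of Col4a1, and its capitals mark the glycine codons (GGN), found at all 6 of the 6 places that a spacing of 9 bases allows. It was the only 1 of the 54 collagen probes with a glycine codon at every such place, so it reads the helix. The probes of Col2a1 and Col5a1 read the propeptide behind the helix, which is cleaved off outside the cell. These 3 probes each had at least 1 reading frame without a stop codon.
Col4a1, second probe, chr16:83146135-83146194, plus strand: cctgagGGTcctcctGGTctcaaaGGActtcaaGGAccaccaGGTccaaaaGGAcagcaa
Col2a1, chr7:136679416-136679475, minus strand: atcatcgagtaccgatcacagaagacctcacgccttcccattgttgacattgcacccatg
Col5a1, chr3:6970963-6971022, plus strand: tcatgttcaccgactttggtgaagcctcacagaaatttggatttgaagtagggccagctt

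No collagen gene passed the threshold between the groups. By limma with Benjamini-Hochberg adjustment over all 19299 tested probes, 0 of 26 collagen genes were called higher and 0 lower in the post-heartbeat group, where 0.188% of the 11164 tested genes were called higher and 0.0358% lower. The lowest adjusted p among the collagen genes was 0.303, that of Col2a1. At an unadjusted p under 0.05, 5 collagen genes were higher (Col2a1, Col5a1, Col6a1, Col12a1 and Col13a1) and 0 were lower, beside 4.94% and 3.36% of all tested genes. Col6a1 was well above background on 1 of the 3 pre-heartbeat arrays and was tested only through its post-heartbeat values, so nothing is read from its place in this count or in that of groups without overlap. The selection of the paper's methods, with a limit of 1.5 fold and of 0.05 on the unadjusted p, held 1 collagen gene as higher, Col2a1, and 0 as lower, beside 2.49% and 1.25% of all tested genes, and 0 collagen genes passed that test after Benjamini-Hochberg adjustment. The groups did not overlap, with the post-heartbeat arrays higher, for 4 collagen genes (Col2a1, Col4a5, Col6a1 and Col12a1; background 6.65%), and for 0 with the post-heartbeat arrays lower (background 7.01%).

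The fold change was above 0 for 21 of 26 collagen genes, beside 46.9% of all tested genes, with a median log2 fold change of 0.25 against -0.02 over all tested genes. Pre-heartbeat replicate 2 had the lowest signal of the 6 arrays for 18 of 26 collagen genes, beside 23.9% of all tested genes. Without that array, 13 of 26 collagen genes had a fold change above 0 (50.4% of all tested genes), and the median was -0.01. Each array was left out in turn, and this one is singled out for its low values. Leaving it out raises the pre-heartbeat mean of the genes it was lowest for. A lower fold change of these genes was thus fixed in advance and is no test of the groups. Over the alternatives that left out 1 array, the median lay between -0.0062 and 0.49. With the slide as a block, 15 of 26 were above 0 (48.2% of all tested genes), with a median of 0.07. In that fit 0 collagen genes were called higher or lower (1.51% and 0.546% of all tested genes), and at an unadjusted p under 0.05, 5 were higher and 0 lower, beside 6.57% and 4.62%. Col6a1 was among these 5, and as it was tested only through its post-heartbeat values, nothing is read from its place there either. The mean log2 signal over the 26 genes was -2.05, -2.96 and -2.36 in the pre-heartbeat samples against -1.85, -2.17 and -2.40 in the post-heartbeat samples, so that the groups overlapped. Pre-heartbeat replicate 2 lies on slide 2, and the separate parts of that array and of the slide in these counts were not tested. Over the 24 collagen genes well above background on all 6 arrays, the fold change was above 0 for 19. The share over all genes that meet this stricter filter is not given here, so nothing is read from that count. In every value here, the log2 signal is relative to the 75th percentile of its array, and a fold change is the post-heartbeat mean less the pre-heartbeat mean on this scale, with its standard error and 3 arrays in each group.

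**Figure D1:**
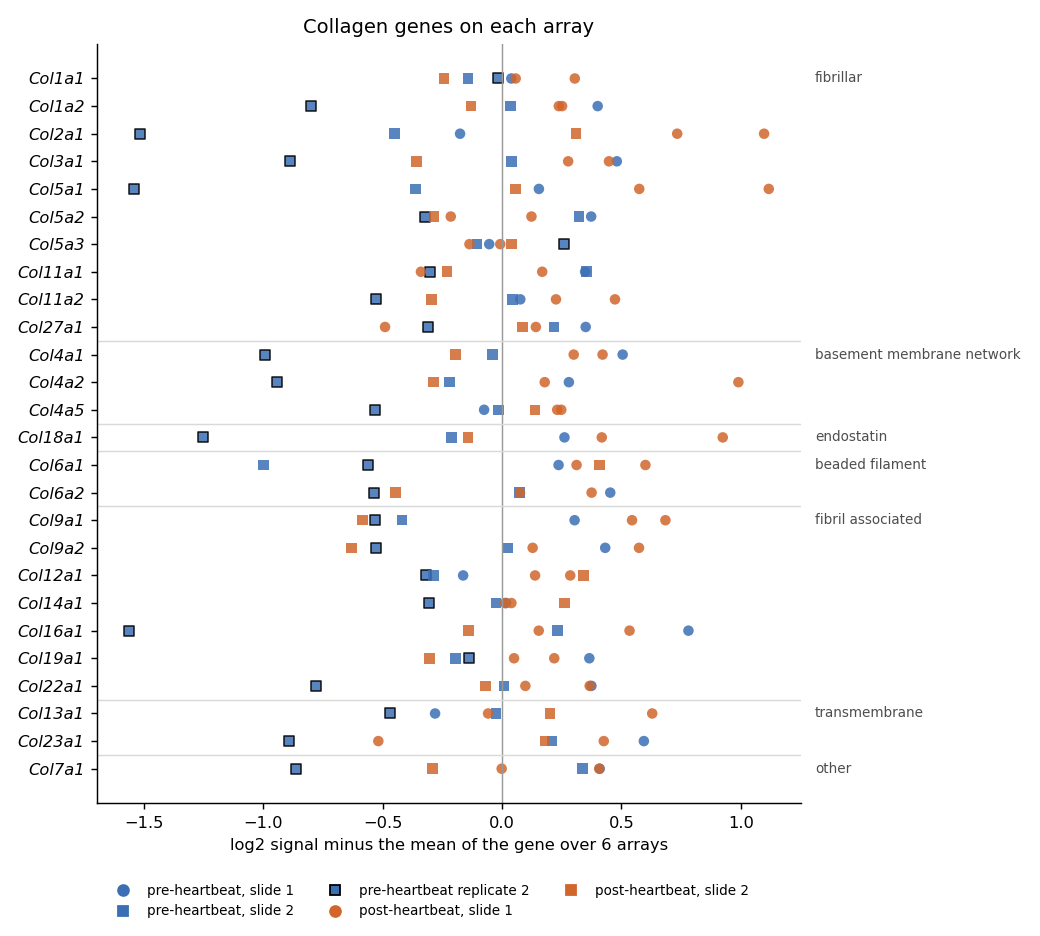
Log2 signal of each tested collagen gene on each array, as the distance from the mean of the gene over the 6 arrays, with genes ordered by family, blue for pre-heartbeat, orange for post-heartbeat, circles for slide 1 and squares for slide 2. The outlined square, pre-heartbeat replicate 2, is the lowest point for 18 of the 26 genes, and Col2a1 and Col12a1 are among the 4 genes whose groups do not overlap.

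The arrays came from 2 slides. Pre-heartbeat replicate 1 shared slide 1 with post-heartbeat replicates 1 and 2, and the remaining 3 arrays were on slide 2. Over all tested probes, the first principal component (60.2% of the variance) split the arrays by slide, and the second (16.6%) by group. The 75th percentile of the signal lay between 1143 and 1694 intensity units, lowest on pre-heartbeat replicate 2, and 39375 to 41327 of 58717 spots were well above background, with 0 saturated. Of the cardiomyocyte markers, 8 of 8 were well above background on all 6 arrays, while 11164 of 16564 gene symbols passed the looser filter for testing. The yolk sac endoderm list passed that filter for 7 of 7 genes, so detection alone does not identify the tissue.

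Among the fibrillar collagens, 10 of 11 genes were tested, 6 had a fold change above 0 and 4 below, and the median was 0.16. With the slide in the model 4 of the 10 were above 0, and the median was -0.02. Col2a1, the type II chain of cartilage and notochord, had log2 signals of 1.32, -0.02 and 1.05 in the pre-heartbeat samples against 2.60, 2.23 and 1.81 in the post-heartbeat samples. All post-heartbeat arrays were above all pre-heartbeat arrays. Its fold change was 1.43 ± 0.37 on the log2 scale, or 2.69 fold (limma adjusted p = 0.303). In the fit that held the slide as a block it was 1.19 (adjusted p = 0.104), and within the slides it was 1.09 on slide 1 and 1.29 on slide 2. Without pre-heartbeat replicate 2 it was 1.03. When that array was left out and the slide was a block, a setting chosen after the values had been seen, it was 0.95 with an adjusted p of 0.046, whereas it lay between 0.0660 and 0.853 over the fit by group and all other alternatives.

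Col5a1, whose type V chain starts fibril assembly and takes part in the same fibrils as types I and III, had log2 signals of -1.27, -2.97 and -1.79 in the pre-heartbeat samples against -0.31, -0.85 and -1.37 in the post-heartbeat samples. Pre-heartbeat replicate 2 was far below the rest, and pre-heartbeat replicate 1 lay above post-heartbeat replicate 3. The fold change was 1.17 ± 0.46 (limma adjusted p = 0.658). It was 0.85 when the slide entered as a block (adjusted p = 0.394) and 0.69 without pre-heartbeat replicate 2, and it was above 0 on both slides. Its partner chain Col5a2 did not share this direction. Log2 signals of Col5a2 were 0.86, 0.16 and 0.81 in the pre-heartbeat samples against 0.61, 0.27 and 0.20 in the post-heartbeat samples, with a fold change of -0.25 ± 0.23 (adjusted p = 0.864). Col5a3, a chain of fewer tissues, gave -3.62, -3.31 and -3.67 in the pre-heartbeat samples against -3.58, -3.71 and -3.53 in the post-heartbeat samples, a fold change of -0.07 ± 0.15 that is smaller than its standard error. The difference between the fold changes of these chains was not tested.

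Col1a1 and Col1a2 encode the chains of type I collagen, the main fibril of most connective tissue. Col1a1 had log2 signals of -2.04, -2.10 and -2.22 in the pre-heartbeat samples against -1.78, -2.02 and -2.33 in the post-heartbeat samples, and its fold change was 0.08 ± 0.18 (adjusted p = 0.903). Col1a2 had 2.69, 1.49 and 2.32 in the pre-heartbeat samples against 2.53, 2.54 and 2.16 in the post-heartbeat samples, with a fold change of 0.24 ± 0.31 (adjusted p = 0.864). Both genes were well above background on all 6 arrays, and their groups overlapped. Col3a1, which forms fibrils in vessel walls and valves, had -1.19, -2.56 and -1.63 in the pre-heartbeat samples against -1.22, -1.39 and -2.03 in the post-heartbeat samples, with a fold change of 0.24 ± 0.38 (adjusted p = 0.869). Without pre-heartbeat replicate 2 the fold changes of Col1a2 and Col3a1 were -0.10 and -0.14. In the fit that also held the slide, with all arrays kept, they were 0.05 for Col1a2, -0.03 for Col3a1 and -0.01 for Col1a1.

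The type XI chains form the core of fibrils that type II makes up. Col11a1 had log2 signals of -2.63, -3.28 and -2.62 in the pre-heartbeat samples against -2.81, -3.32 and -3.21 in the post-heartbeat samples, and Col11a2 had -5.04, -5.64 and -5.07 in the pre-heartbeat samples against -4.64, -4.89 and -5.41 in the post-heartbeat samples. The fold changes were -0.27 ± 0.24 and 0.27 ± 0.26 (adjusted p = 0.864 and 0.864), each close to its standard error in size. For Col11a2 the value was 0.11 with the slide in the model and 0.07 without pre-heartbeat replicate 2. Col27a1, a fibrillar chain of cartilage, had a fold change of -0.17 ± 0.25 (adjusted p = 0.866). Col24a1, the only fibrillar gene not tested, was well above background on 1 pre-heartbeat array with its brighter probe and on no other array.

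Type IV collagen of most basement membranes is built from the Col4a1 and Col4a2 chains. The genes are neighbours, transcribed away from each other, and between their RefSeq starts lie 76 bases on GRCr8 with a GC content of 78.9%, shown because the genes of both chains start at its ends. Capitals mark the motif GGGCGG (the GC box), found 1 time here on the minus strand.
Col4a1 and Col4a2, between the starts, chr16:84885521-84885596, plus strand: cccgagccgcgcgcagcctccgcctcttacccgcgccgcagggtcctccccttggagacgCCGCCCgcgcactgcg
The letters CCAAT and TATAAA were found 0 times in it, on either strand. In the RefSeq windows of 250 bases before to 50 bases after a start, 18 of 30 collagen genes with a window held GGGCGG on either strand, beside 34.9% of 27457 windows, and 8 of 30 held CCAAT, beside 37.7%. The windows of Col4a1 and Col4a2 both held CCAAT, beyond the bases shown. TATAAA was held by 4 of 30, beside 14.3%. A match describes the letters of the sequence only.

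Col4a1 had log2 signals of 1.36, -0.14 and 0.81 in the pre-heartbeat samples against 1.27, 1.15 and 0.66 in the post-heartbeat samples with its brightest probe, which reads the 3′ end of the transcript, and a fold change of 0.35 ± 0.38 (adjusted p = 0.864), which became 0.09 with the slide in the model and -0.06 without pre-heartbeat replicate 2. The helix probe printed above gave -2.99, -4.41 and -3.13 in the pre-heartbeat samples against -1.75, -2.25 and -2.82 in the post-heartbeat samples. On this probe all post-heartbeat arrays were above all pre-heartbeat arrays, and its fold change was 1.24 ± 0.43 (adjusted p = 0.543), or 0.97 with the slide as a block (adjusted p = 0.31). The probes of Col4a1 thus had the same sign and differed in size by more than the standard error of either, without a test of that difference. Col4a2 gave -2.20, -3.42 and -2.70 in the pre-heartbeat samples against -1.49, -2.30 and -2.77 in the post-heartbeat samples, with a fold change of 0.59 ± 0.41 (adjusted p = 0.864), 0.30 when the slide was added and 0.26 without pre-heartbeat replicate 2. Col4a5, a chain of the basement membranes of kidney and smooth muscle, gave -2.70, -3.16 and -2.64 in the pre-heartbeat samples against -2.38, -2.40 and -2.49 in the post-heartbeat samples. Its groups did not overlap, and the fold change was 0.41 ± 0.18 (adjusted p = 0.719), or 0.25 without pre-heartbeat replicate 2. Col4a3 and Col4a4, which join Col4a5 in the adult kidney, were well above background on 0 of the 6 arrays, and Col4a6 is not analysed here.

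Col18a1, the endostatin-bearing proteoglycan of basement membranes, had log2 signals of 1.54, 0.02 and 1.06 in the pre-heartbeat samples against 2.20, 1.69 and 1.13 in the post-heartbeat samples. Post-heartbeat replicate 1 was highest and pre-heartbeat replicate 2 lowest, and the groups overlapped. The fold change was 0.80 ± 0.43 (adjusted p = 0.864). It was 0.50 when the slide entered as a block and 0.38 without pre-heartbeat replicate 2. Col15a1, the related endostatin-type chain, was well above background on 0 arrays.

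Type VI filaments are assembled from Col6a1, Col6a2 and a longer chain, in most tissues Col6a3. Col6a1 gave log2 signals of -6.21, -7.01 and -7.45 in the pre-heartbeat samples against -6.14, -5.85 and -6.04 in the post-heartbeat samples. It was well above background on 1 of the 3 pre-heartbeat arrays and on all 3 post-heartbeat arrays, and the groups did not overlap. Its fold change was 0.88 ± 0.31 (adjusted p = 0.539), and 0.70 with the slide as a block (adjusted p = 0.326), with 0.22 on slide 1 and 1.19 on slide 2. Under normexp background correction it was 0.07. Because 2 of the 3 pre-heartbeat values were not well above background, the size of this difference is not settled by these arrays. The transcript given for the Col6a1 probe had no match in the RefSeq names used, so its name is that of the array design. Col6a2, its neighbour on the chromosome, was well above background on all 6 arrays, with -0.74, -1.73 and -1.12 in the pre-heartbeat samples against -0.82, -1.12 and -1.64 in the post-heartbeat samples. Its fold change was 0.00 ± 0.31 (adjusted p = 0.997), and -0.22 with the slide as a block. The probes of Col6a3 and Col6a6 were well above background on 0 arrays.

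Of the 8 fibril-associated genes, 7 were tested, 6 with a fold change above 0, and the median was 0.26. The median was 0.09 with the slide in the model, and 5 of the 7 were above 0. Col12a1, whose type XII chain bridges fibrils and surrounding matrix in tissue under tension, had log2 signals of -3.01, -3.16 and -3.14 in the pre-heartbeat samples against -2.56, -2.71 and -2.51 in the post-heartbeat samples. The post-heartbeat arrays were all higher, and the spread within each group was small (SD 0.08 and 0.10). The fold change was 0.51 ± 0.13 (adjusted p = 0.306), and it held its size with the slide as a block at 0.51 (adjusted p = 0.169) and without pre-heartbeat replicate 2 at 0.48. Over the alternatives that left out 1 array in turn it lay between 0.47 and 0.57. Its brightest probe reads a stretch with a stop codon in every frame, and the other 2 Col12a1 probes were not well above background on all arrays of a group, so 1 probe carries this value.

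Col14a1, a chain that binds fibrils beside type XII, had a fold change of 0.21 ± 0.16 (adjusted p = 0.864). Col9a1 and Col9a2, the cartilage chains that coat type II fibrils, gave log2 signals of -3.24, -4.07 and -3.96 in the pre-heartbeat samples against -2.86, -3.00 and -4.13 in the post-heartbeat samples for Col9a1, and of -2.22, -3.19 and -2.63 in the pre-heartbeat samples against -2.08, -2.53 and -3.29 in the post-heartbeat samples for Col9a2. Their fold changes were 0.43 ± 0.38 and 0.05 ± 0.36 (adjusted p = 0.864 and 0.973), and 0.10 and -0.23 when the slide was added. For both genes post-heartbeat replicate 3, on slide 2, was the lowest of all arrays, and Col9a3 is not analysed here. Col16a1, found near basement membranes and in cartilage, had a fold change of 0.37 ± 0.57 and of -0.32 without pre-heartbeat replicate 2. Col19a1, a basement membrane zone chain, had -0.02 ± 0.22, and Col22a1, a chain of tissue junctions, had 0.26 ± 0.30. The adjusted p of these last 3 genes lay between 0.864 and 0.981.

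The transmembrane chain Col13a1, which sits at cell-matrix contacts such as the neuromuscular junction, gave log2 signals of -3.68, -3.87 and -3.43 in the pre-heartbeat samples against -2.77, -3.46 and -3.20 in the post-heartbeat samples. Post-heartbeat replicate 2 lay within the pre-heartbeat range. The fold change was 0.52 ± 0.22 (adjusted p = 0.714), and 0.51 with the slide as a block. It was 0.33 without post-heartbeat replicate 1 and 0.30 under normexp background correction. Col23a1, the other tested transmembrane chain, had 0.06 ± 0.42 (adjusted p = 0.972), and the anchoring fibril gene Col7a1 had 0.08 ± 0.37 (adjusted p = 0.956), and with the slide added these were -0.06 and -0.12. Col7a1 was well above background on 2 of the 3 pre-heartbeat arrays.

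**Figure D2:**
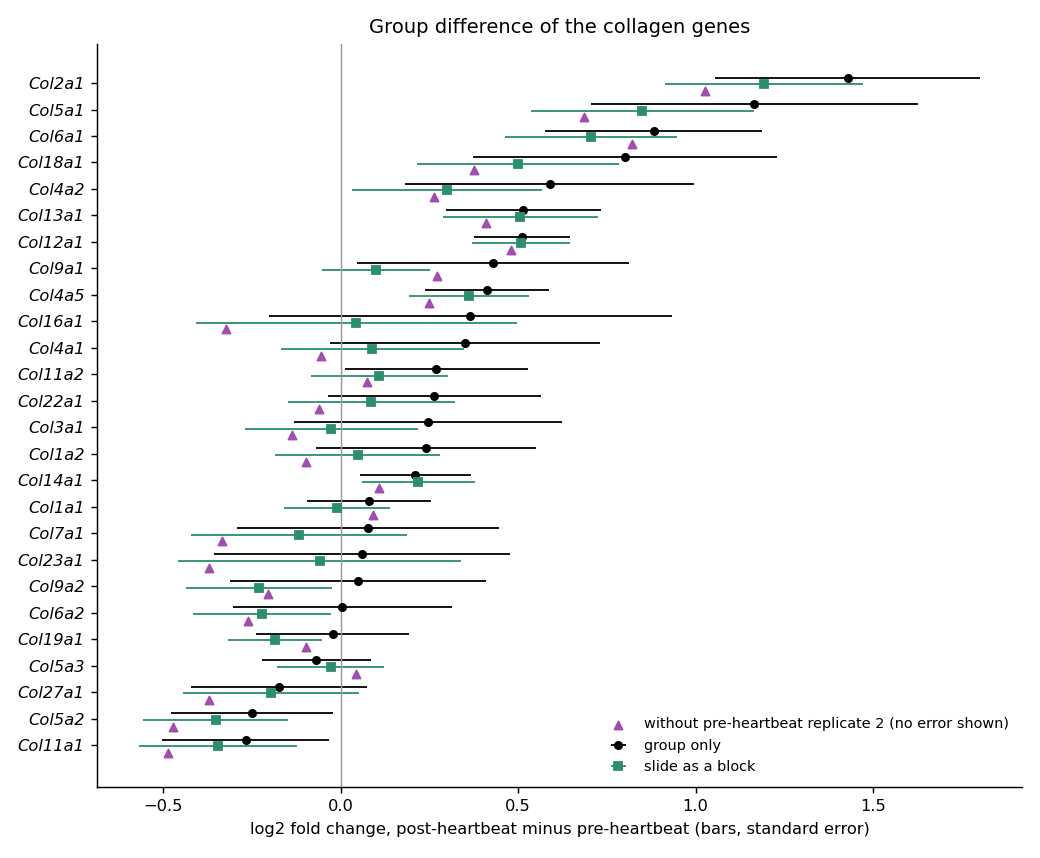
Log2 fold change (post-heartbeat minus pre-heartbeat) with its standard error for the 26 tested collagen genes, from the fit by group (black), with the slide as a block (green) and without pre-heartbeat replicate 2 (purple, no error shown). Col2a1 (1.43) and Col5a1 (1.17) are at the top, Col12a1 keeps its place in all 3 fits, and for genes such as Col16a1 and Col4a1 the purple symbol is on the other side of 0.

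With group and slide in 1 model, the slide 2 signal was below that of slide 1 for 24 of 26 collagen genes, beside 44.2% of all tested genes, with a median log2 difference of -0.53 against 0.05 over all tested genes. Of these, 3 passed the adjusted threshold as lower on slide 2 (Col9a1, Col9a2 and Col19a1) and 0 as higher, beside 7.23% and 5.43% of all tested genes. Col9a1 differed by -0.99 between the slides (limma adjusted p = 0.00637), Col9a2 by -0.83 (adjusted p = 0.0331) and Col19a1 by -0.49 (adjusted p = 0.044). The other tested Col9a1 probes differed by -0.01 (limma adjusted p = 0.974) and -0.32 (adjusted p = 0.264), so the brightest probe alone carries the Col9a1 call. Col5a3 and Col14a1 were the 2 genes not below on slide 2. Col12a1 and Col13a1 differed by -0.01 and -0.03, and their group differences were nearly the same with and without the slide as a block. Each slide held both groups, 1 pre-heartbeat and 2 post-heartbeat arrays or the reverse, and what differed between the slides other than the hybridization was not tested.

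**Figure D3:**
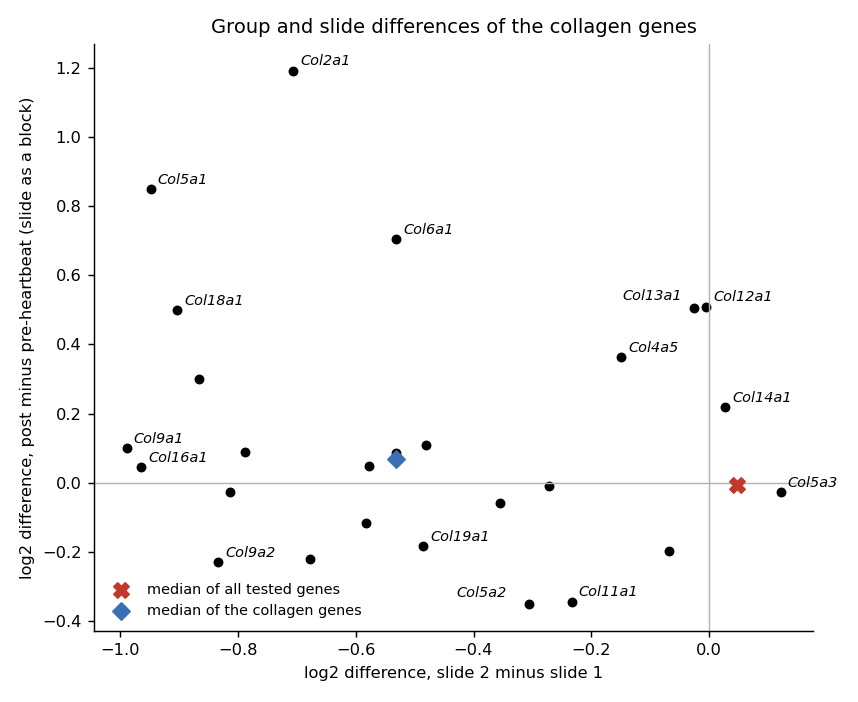
Each tested collagen gene by its log2 difference between slides (slide 2 minus slide 1, horizontal) and between groups with the slide as a block (post-heartbeat minus pre-heartbeat, vertical). The collagen median (blue) lies at -0.53 and 0.07, and the median of all tested genes (red) at 0.05 and -0.01.

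For 6 collagen genes, several probes were tested. The signs agreed between probes for 5 of them, Col4a1, Col14a1, Col11a1, Col1a1 and Col5a2, and Col9a1 had fold changes of 0.43, -0.03 and 0.16. The second probe of Col14a1 had a fold change of 0.18 ± 0.19 beside 0.21, and that of Col11a1 -0.24 ± 0.26 beside -0.27, differences below their standard errors. The second probe of Col5a2 gave 0.71, 0.22 and 0.77 in the pre-heartbeat samples against 0.19, 0.00 and 0.20 in the post-heartbeat samples, with all post-heartbeat arrays below all pre-heartbeat arrays, and a fold change of -0.44 ± 0.19 (adjusted p = 0.716). The second probe of Col1a1 gave -1.38, -4.29 and -2.38 in the pre-heartbeat samples against -1.57, -2.05 and -2.20 in the post-heartbeat samples, and its fold change of 0.74 ± 0.67 came with a pre-heartbeat replicate 2 signal far below the others, which the brightest Col1a1 probe did not have.

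**Figure D4:**
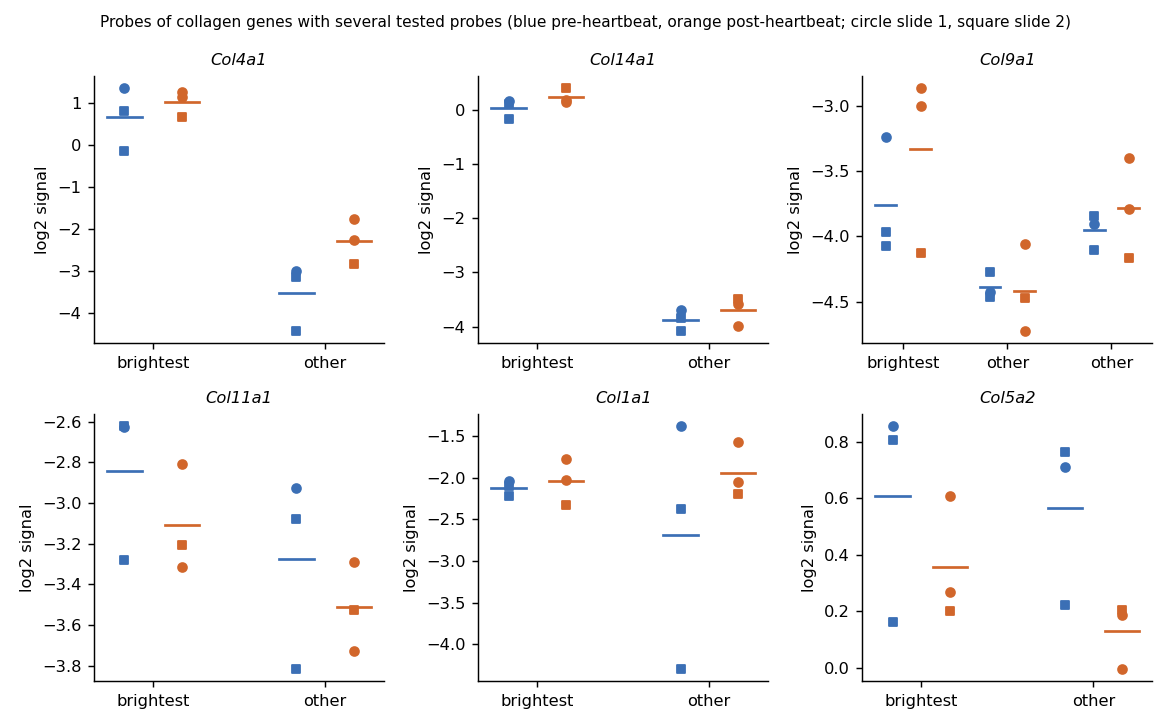
Log2 signal on each array for the 6 collagen genes with several tested probes, 1 panel a gene, with the group means as lines, blue for pre-heartbeat, orange for post-heartbeat, circles for slide 1 and squares for slide 2. Levels of different probes are not comparable, and within the Col4a1 panel only the dimmer, helix-reading probe has groups that do not overlap.

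Genes that make, process, bind or break down collagens were listed from general knowledge. Of the 22 listed genes of collagen synthesis and secretion (prolyl and lysyl hydroxylases, chaperones and export factors), 18 were tested, 14 with a fold change above 0, and the median was 0.10 with a range of -0.15 to 0.34. By limma, 0 were called in either direction, and 0 had an unadjusted p under 0.05. No probe was found by name for the listed export factors Mia2 and Mia3. Serpinh1, the collagen chaperone HSP47, had a fold change of 0.10 ± 0.13, and P4hb, a subunit of prolyl hydroxylase, had 0.02 ± 0.14, each smaller than its standard error. P4ha2, a catalytic subunit of the same enzyme, had a fold change of 0.30 ± 0.13 (adjusted p = 0.753).

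Of 17 genes of processing and crosslinking, 11 were tested, 8 with a fold change above 0, and the median was 0.06. With the slide in the model 4 of the 11 were above 0, and the median was -0.03. Loxl3, a lysyl oxidase that crosslinks collagen and elastin, had log2 signals of -5.88, -5.56 and -5.56 in the pre-heartbeat samples against -4.94, -4.39 and -4.42 in the post-heartbeat samples. All post-heartbeat arrays were above all pre-heartbeat arrays, and the fold change was 1.08 ± 0.20 (limma adjusted p = 0.124). In the fit with the slide it rose by 1.18 on the log2 scale (adjusted p = 0.0241), the only gene of the list called, beside 1.51% of all tested genes called higher in that fit. Pcolce2, an enhancer of procollagen cleavage, had a fold change of -0.38 ± 0.15 (adjusted p = 0.658), with all post-heartbeat arrays below. Lox itself was well above background on 0 arrays.

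Of 15 basement membrane partners, 9 were tested, 6 with a fold change above 0 and 3 below, with a median of 0.14 and 0 called. Lama2 was well above background on 0 arrays. No probe was found by name for Lama3, Lama4, Lamb1, Hspg2 and Npnt, so their absence is no sign of low signal. Nid2, which links laminin to type IV collagen, had log2 signals of 0.89, 0.54 and 0.98 in the pre-heartbeat samples against 1.45, 1.24 and 1.15 in the post-heartbeat samples, with a fold change of 0.48 ± 0.17 (adjusted p = 0.582). Fn1, fibronectin, had a fold change of 0.14 ± 0.13. The 3 genes below 0 were Nid1 (-0.31 ± 0.26), Lama1 (-0.24 ± 0.14) and Pxdn (-0.03 ± 0.16). Of 14 genes of collagen breakdown, 10 were tested with a median of -0.01. Timp3, a matrix-bound inhibitor of metalloproteinases, gave -6.68, -5.79 and -6.03 in the pre-heartbeat samples against -5.55, -5.88 and -5.12 in the post-heartbeat samples, and was well above background on 1 of 3 pre-heartbeat and 3 of 3 post-heartbeat arrays. Its groups overlapped, and the fold change was 0.65 ± 0.29 (adjusted p = 0.755), or 0.88 with the slide as a block (adjusted p = 0.0437, beside 1.51% of all tested genes called higher). It was tested only through its post-heartbeat values, so this call rests partly on values not well above background.

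Of 12 collagen receptors, 8 were tested, 4 in each direction, with a median of -0.04 and 0 called. No probe was found by name for the listed receptor Gp6. Ddr2, a receptor tyrosine kinase for fibrillar collagen, gave log2 signals of -3.46, -4.26 and -4.30 in the pre-heartbeat samples against -5.23, -6.77 and -7.33 in the post-heartbeat samples. Its signal was well above background in each of the 3 pre-heartbeat samples but in only 1 of the post-heartbeat samples, and the groups did not overlap. The fold change was -2.43 ± 0.53 (limma adjusted p = 0.199), and -2.79 in the fit with the slide (adjusted p = 0.0182), beside 0.546% of all tested genes called lower in that fit. Ddr2 was tested only through its pre-heartbeat values, and with 2 of the 3 post-heartbeat values not well above background neither the size of the difference nor its call is settled. Adgrg6, an adhesion receptor that binds type IV collagen, gave -3.42, -2.47 and -2.92 in the pre-heartbeat samples against -2.68, -2.29 and -1.70 in the post-heartbeat samples. It had a fold change of 0.71 ± 0.32 (adjusted p = 0.778), and with the slide as a block it rose by 0.96 (adjusted p = 0.0499, close to the threshold), beside 1.51% of all tested genes called higher in that fit. Adgrg1, a receptor of type III collagen, gave -0.32, -1.58 and -0.71 in the pre-heartbeat samples against 0.17, 0.27 and 0.17 in the post-heartbeat samples, with a fold change of 1.07 ± 0.31 (adjusted p = 0.365, and 0.204 in the fit with the slide). The integrin chain Itgb1, which pairs with the collagen-binding alpha chains, had a fold change of 0.03 ± 0.18. The tested alpha chains were below 0, Itga1 at -0.14 ± 0.14, Itga11 at -0.12 ± 0.18 and Itga2 at -1.31 ± 0.63 (limma adjusted p = 0.812). Itga2 was well above background on 2 of the 3 post-heartbeat arrays, and its groups overlapped. It was tested only through its pre-heartbeat values and differed by 1.66 between the slides (adjusted p = 0.00357), so its size is not settled.

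**Figure D5:**
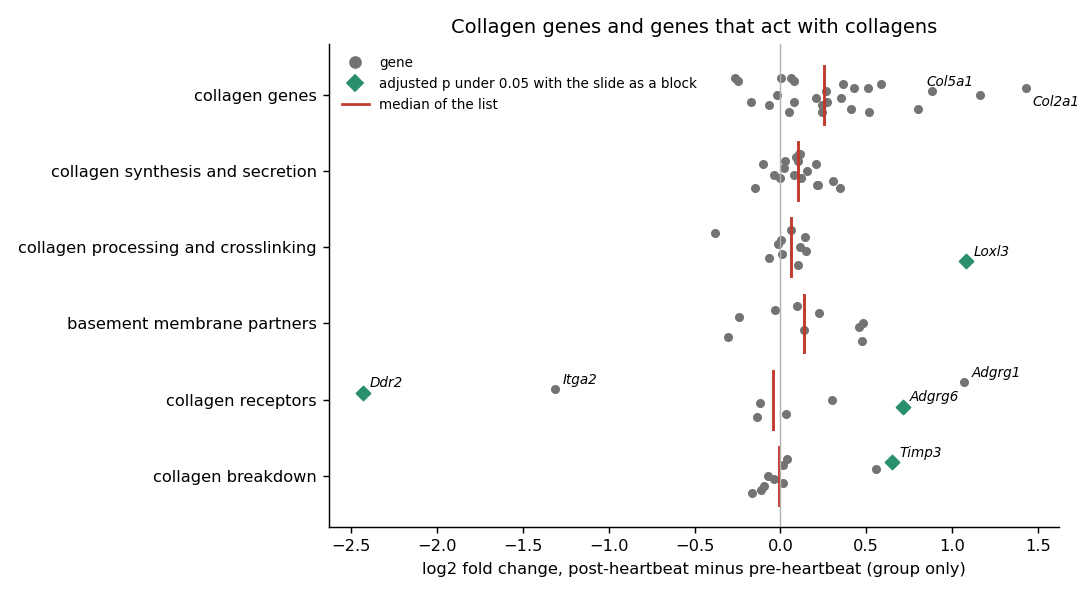
Log2 fold change (post-heartbeat minus pre-heartbeat, fit by group) of each tested gene of the collagen genes and of 5 lists of genes that act with collagens, with the median of each list as a red line. Green diamonds are the 4 genes past the adjusted threshold of 0.05 in the fit with slide as a block, Loxl3, Ddr2, Adgrg6 and Timp3, and no collagen gene is among them. In that fit 1.51% of all tested genes were called higher and 0.546% lower. Ddr2 and Timp3 were well above background on 1 of the 3 arrays of their lower group.

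The 11 collagen genes that were not tested were Col4a3, Col4a4, Col6a3, Col6a6, Col8a1, Col8a2, Col10a1, Col15a1, Col17a1, Col20a1 and Col24a1. Their brightest probes were well above background on at most 1 of the 6 arrays. Col8a1 and Col8a2, the short chains of the endothelial type VIII network that later appear in heart valves, were well above background on 1 and 0 arrays, with log2 signals between -8.31 and -6.52. Of 44 collagen genes in the RefSeq table, 7 had no probe under this rule (Col4a6, Col6a4, Col6a5, Col9a3, Col25a1, Col26a1 and Col28a1) and are not analysed here. Col4a3bp, the ceramide transfer gene that shares the name pattern, had a fold change of -0.12 ± 0.23 (adjusted p = 0.887).

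Markers of the cell types that the dissection could hold are given as list means of the log2 signal, beside the collagen mean above. The cardiomyocyte list (8 of 8 tested, 8 with a fold change above 0) lay at 3.33 to 3.69 in the pre-heartbeat group and 4.07 to 4.17 in the post-heartbeat group. The paraxial mesoderm list (4 of 5 tested) was 0.13, -0.67 and -0.10 in the pre-heartbeat samples against 0.36, 0.12 and -0.24 in the post-heartbeat samples, lowest on pre-heartbeat replicate 2 as the collagen mean was. The yolk sac endoderm list (7 of 7 tested) was 1.34, 0.15 and 0.78 in the pre-heartbeat samples against 0.81, 0.71 and 0.06 in the post-heartbeat samples, and the epicardial and mesenchymal list (5 of 6 tested) was -3.39, -4.50 and -3.95 in the pre-heartbeat samples against -3.84, -4.61 and -4.41 in the post-heartbeat samples, both highest on pre-heartbeat replicate 1. Members of the epicardial and mesenchymal list went opposite ways, with log2 fold changes from -1.67 to 1.61, 1 above 0 and 4 below. The notochord list (2 of 4 tested, with Noto and Shh well above background on 0 arrays) was -2.89, -3.44 and -3.45 in the pre-heartbeat samples against -2.95, -3.62 and -3.81 in the post-heartbeat samples, highest on the first replicate of each group. Its member T, a notochord and primitive streak gene, had log2 signals of -0.99, -2.56 and -2.51 in the pre-heartbeat samples against -1.28, -2.70 and -3.05 in the post-heartbeat samples, with a fold change of -0.32 ± 0.58 (adjusted p = 0.882). The definitive endoderm list (5 of 6 tested) lay at 0.81 to 1.08 in the pre-heartbeat group and 0.42 to 0.53 in the post-heartbeat group, the endothelial and endocardial list (7 of 8 tested) at -0.81 to -0.57 in the pre-heartbeat group and -0.97 to -0.80 in the post-heartbeat group, the erythroid list (5 of 6 tested) at -2.64 to -1.94 in the pre-heartbeat group and -2.37 to -1.92 in the post-heartbeat group, and the neural ectoderm list (2 of 5 tested) at 0.60 to 1.42 in the pre-heartbeat group and -0.05 to 0.40 in the post-heartbeat group. Otx2, a gene of the anterior neural plate, was the only tested member of these lists called by limma in the fit by group, and it fell by 1.56 (adjusted p = 0.0201). In the fit with the slide, Otx2 fell by 1.52 (adjusted p = 0.0063) and 3 more were called, beside 1.51% of all tested genes called higher and 0.546% lower. The myosin heavy chain genes Myh6 and Myh7 rose by 1.06 and 1.19 (adjusted p = 0.0348 and 0.0239), and Cer1, a secreted antagonist made in anterior endoderm, fell by 1.41 (adjusted p = 0.0212). The part of cell makeup in the collagen values was not tested.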

How the data were processed

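Global gene expression was measured in 6 heart primordium samples with 1-color Agilent arrays, and per the labels the spots were quantified with Agilent Feature Extraction 10.7.3.1. The authors deposited the processed signal of each spot, an intensity with the background subtracted and not normalized between arrays, beside the mean signal and background intensities, and a table of linear ratios that had been shifted to the 75th percentile and divided by a baseline of each probe. The processed signal was taken as log2, control spots and outlier spots were left out, each array was shifted by its 75th percentile and spots of a probe were averaged. Testing required a probe to be above background by the scanner flag (at least 0.5 of its kept spots) on all 3 arrays of 1 group or both. Groups were compared with limma 3.58.1 in R 4.3.3 (linear model, empirical Bayes moderation) over all 19299 tested probes of 30367, with Benjamini-Hochberg adjustment and a threshold of 0.05. The Tukey HSD test named in the paper's methods, with its limit of 1.5 fold, was computed on the same values.

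The members and lists were chosen with earlier results of these data known. Every tested collagen gene is named, with the value on each array for those at an unadjusted p under 0.05 and for their partner chains. From the pathway and marker lists, genes called with or without the slide as a block are named, and from the pathway lists also the largest changes at an unadjusted p under 0.05. Alternatives were the slide or the replicate number as a block, normexp correction (offset 50), quantile normalization, other percentiles and filters, the ratios of the authors, an intensity trend, the mean of the probes and leaving out each array. The slide was read from the array barcode. Of the 54 collagen probes, 25 were matched to a current RefSeq name through their transcript, all with the same name. Promoter sequences are from RefSeq (GRCr8), and probe positions are those of the array annotation (rn4). The fits were tested on simulated data. Precision is limited by the number of arrays, and the p-values measure the spread between 3 samples a group, described as biological replicates in the labels. Figures were drawn with matplotlib 3.10.9.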

Additional observations from a re-analysis of the deposited data

How the results depend on the processing

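Over the 26 tested collagen genes and all alternatives, 440 gene values were computed, of which 396 kept the direction and the side of the threshold, 43 changed sign and 1 passed the threshold. The sign held throughout for 13 genes, among them Col2a1, Col5a1, Col12a1, Col13a1 and Col18a1, and changed at least once for 13. Col6a1 also kept its sign, but it was tested only through its post-heartbeat values, so nothing is read from that. Size was less stable, and under normexp background correction the Col6a1 value went from 0.88 to 0.069. After leaving out each array in turn, the log2 fold changes that changed sign ranged as follows: Col16a1 -0.32 to 0.85, Col19a1 -0.14 to 0.16, Col1a1 -0.053 to 0.22, Col1a2 -0.098 to 0.50, Col22a1 -0.060 to 0.52, Col23a1 -0.37 to 0.37, Col27a1 -0.37 to 0.027, Col3a1 -0.14 to 0.55, Col4a1 -0.057 to 0.69, Col5a3 -0.14 to 0.044, Col6a2 -0.26 to 0.23, Col7a1 -0.33 to 0.30 and Col9a2 -0.23 to 0.38. With the slide as a block the values that changed sign were Col6a2 -0.22, Col9a2 -0.23, Col1a1 -0.011, Col3a1 -0.026, Col7a1 -0.12 and Col23a1 -0.059. Under normexp background correction they were Col6a2 -0.020, Col9a2 -0.021, Col7a1 -0.059 and Col23a1 -0.097, under quantile normalization Col6a2 -0.021, and with the authors' ratios Col6a2 -0.014. With the slide as a block and pre-heartbeat replicate 2 left out, which was chosen after seeing the data, they were Col4a1 -0.15, Col6a2 -0.35, Col16a1 -0.41, Col22a1 -0.12, Col9a2 -0.33, Col1a2 -0.16, Col3a1 -0.24, Col5a3 0.051, Col7a1 -0.39 and Col23a1 -0.38, and Col2a1 passed the threshold at 0.95. The cause was not tested.

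The count of collagen genes higher in the post-heartbeat group was 0 in the fit by group and 1 under the selection of the paper's methods and with the slide as a block without pre-heartbeat replicate 2, and it was 0 under each other alternative, as was the count of genes lower under all of them. The median fold change of 0.25 lay between -0.0062 and 0.49 over the alternatives that left out 1 array, the lowest without pre-heartbeat replicate 2, and at -0.052 when the slide was also a block. In the lists, the counts of 0 became 1 for processing and crosslinking genes higher under the selection of the methods, the slide block and the replicate block, and with the slide as a block without pre-heartbeat replicate 2. They became 1 for receptors lower under the same 4 settings, 1 for receptors higher under 3 of these (not the replicate block), and 1 for breakdown genes higher under both settings with the slide as a block. The replicate number as a block left 0 collagen genes called in either direction. The deviations of same-numbered arrays from their group means correlated at 0.65, -0.28 and 0.49, so the numbers were not taken as pairs. The number of arrays limits what can be detected, and a gene flagged as not well above background has only an upper limit.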
